A study of Homo sapiens with 6 samples.

Results

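The genes described here encode the extracellular and membrane metalloproteases of SNU449 cells, their tissue inhibitors and a set of metallocarboxypeptidases. They are the 50 of 13117 listed genes whose symbol begins with MMP or ADAM and a digit, with ADAMTS or with CPXM, is a numbered TIMP or CPA, or is CPE, CPD, CPM or MME. The choice used symbols only and no measured value. The members were 13 matrix metalloproteinases (MMPs), MMP24OS, 2 tissue inhibitors of metalloproteinases (TIMPs), 12 ADAMs, 13 ADAMTSs, 3 ADAMTS-like genes, 5 carboxypeptidases and MME.

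SNU449 is an established human hepatocellular carcinoma cell line. In all 6 samples the cells carried pInducer20-FOXO1AAA, a construct from which doxycycline induces a FOXO1 whose AKT phosphorylation sites are replaced, and the genotype is otherwise labelled WT. Cont is 3 libraries of cells without doxycycline, and Dox is 3 libraries of cells given 2 µM doxycycline hydrochloride for 48 h. The labels do not say whether the line is 1 clone or whether the 3 libraries in each group stem from separate cultures. The p-values thus measure the spread between these libraries, which may be technical. No sample received doxycycline without the construct, so effects of doxycycline and of FOXO1AAA cannot be told apart.

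As background, MMPs, ADAMs and ADAMTSs are zinc proteases that share a catalytic fold and are made as inactive precursors, which furin-like proteases or other metalloproteases activate. MMPs cut collagens, laminins and other matrix proteins, ADAMs mostly release the outer parts of membrane proteins such as growth factors and Notch, and ADAMTSs are secreted enzymes that cut proteoglycans, procollagens and von Willebrand factor. TIMPs bind the active site and block it. Metallocarboxypeptidases remove single residues from the C-terminus of peptides. In liver, these proteins are known for turning over matrix in fibrosis and for the invasion of carcinoma cells. All of this acts on the protein, and only mRNA was measured here.

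The libraries held an estimated 28.4 to 47.1 M reads, from the steps of the lowest values. Transcripts of the mitochondrial genome took 3.00% to 4.67% of the summed FPKM in Cont and 13.2% to 14.7% in Dox, and their part in the results was not tested beyond the rescaling given below. FOXO1 mRNA was at FPKM 0.741, 0.776 and 0.889 in Cont and 2.87, 3.50 and 2.01 in Dox. The table does not show whether transcripts of the construct were counted there. Of 14 hepatocyte markers, 5 had a row that was analysed, and 3 of these reached FPKM 1. ALB, the albumin gene, was at 0.0941 to 0.571 in Cont and 0.85 to 1.71 in Dox. The 8 mesenchymal markers summed to FPKM 1192 to 1217 in Cont and 896 to 928 in Dox. VIM carried the lower sum, at 901 to 915 and 265 to 329, while 6 of the 8 were higher in every Dox library than in any Cont library, among them TWIST1 at 134 to 156 and 424 to 471. The leukocyte marker analysed, CD14, was at 1.73 to 2.35 and 2.25 to 2.38, and the 2 endothelial markers summed to less than FPKM 1 in every library. The 5 hepatocyte markers summed to 143 to 208 in Cont and 14.5 to 19.6 in Dox, the 4 epithelial markers of 7 to 122 to 128 and 42.9 to 48.2, and the 3 fibroblast and stellate markers of 7 to 16.7 to 20.9 and 136 to 166. COL1A1 was the highest of these in Cont (10.2 to 12.4, against 2.23 to 3.51 in Dox) and COL3A1 in Dox. Their part in the results was not tested. Bulk RNA cannot tell fewer cells of a kind from less RNA per cell.

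FPKM is a read count scaled to transcript length and library size, so levels of different genes can be set side by side. Differences were tested with limma on log2(FPKM + 1), and a gene was called at a Benjamini-Hochberg adjusted p under 0.05 over all 11526 tested genes. Of the 50 members, 39 passed the filter of FPKM 1 in at least 3 libraries: 18 were called higher in Dox, 12 lower and 9 were not called. Across all tested genes, 80.4% were called, 37.6% higher and 42.8% lower. Thus the share of members called, 30 of 39, was near the background and is no result about the group. Of these members, 6 were below FPKM 1 in every Cont library: ADAM8, ADAM22, ADAMTS6, ADAMTS13, CPA5 and MMP10. In every Dox library 2 were below FPKM 1: ADAMTS9 and MMP2. All of these passed the filter only through the group where they were higher, which limits their own tests too. The counts thus support nothing about the set. With no filter, 25 of the 50 members were called higher and 13 lower, where 77.3% of all genes were called. The Dox and Cont values did not overlap in 33 of 39 tested members, against 82.1% of all tested genes. The log2 change reached 1 upward in 9 members and downward in 6, where the background was 16.3% and 16.6%. Values were also rescaled to TPM, which gives every library the same sum, and to TPM recomputed without the mitochondrially encoded genes, named nuclear TPM. This moved the balance of all calls: 46.7% of called genes were higher with FPKM as deposited and 59.0% in nuclear TPM, where 24 members were higher and 10 lower. The median log2 change was 0.21 for the tested members and -0.06 for all tested genes. The plot of the log2 changes shows changes to both sides of 0 among the MMPs, ADAMs, ADAMTSs, ADAMTS-like genes and carboxypeptidases, and to the lower side for both TIMPs.

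**Figure D1:**
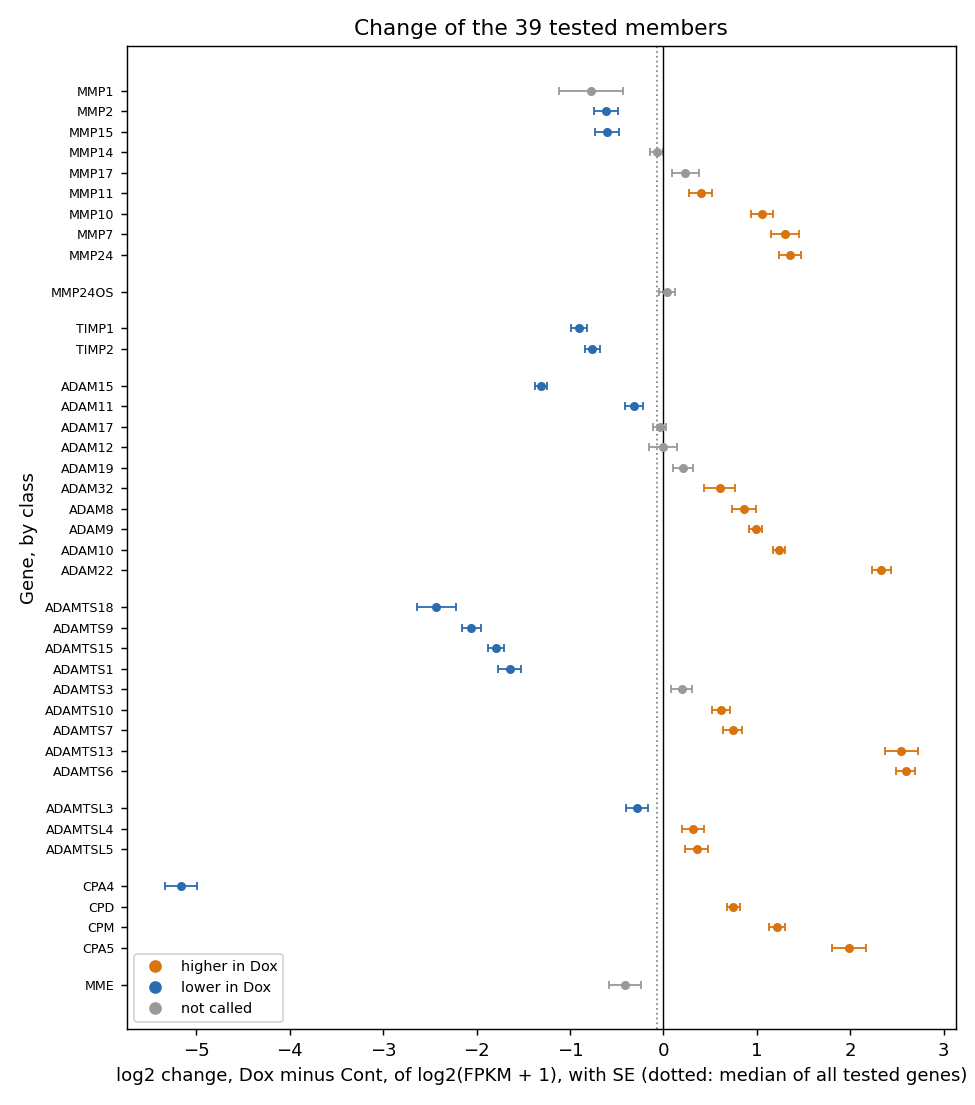
Log2 change of the 39 tested members (x axis, Dox minus Cont in log2(FPKM + 1), points with limma's SE), in rows by class; colour gives the call at an adjusted p under 0.05 and the dotted line is the median of all tested genes. CPA4 stands alone at -5.16, and the ADAMTSs split into 4 called lower, 4 called higher and ADAMTS3, which was not called.

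Among the MMPs, the 2 genes with the highest mean were higher in Dox. MMP24, which encodes the membrane-type protease MT5-MMP, had FPKM 37.4, 34.3 and 26.2 in Cont and 82.2, 81.7 and 88.7 in Dox. MMP7, the gene of matrilysin, a small MMP that lacks the hemopexin domain, was at 20.5, 20.2 and 12.9 and at 48.0, 41.2 and 44.5. All Dox values of both genes lay above all Cont values. MMP24 rose 2.58-fold (log2 change 1.35 with an SE of 0.12, adjusted p = 2.51e-06 by limma) and MMP7 rose 2.50-fold (1.30 with an SE of 0.15, adjusted p = 2.71e-05 by limma). MMP10, which encodes stromelysin 2, was near the lower limit in Cont, at FPKM 0.332, 0.196 and 0.166, which is an estimated 15, 12 and 8 reads. In Dox it was at 1.65, 1.37 and 1.66, a log2 change of 1.06 (SE 0.12, limma adjusted p = 1.80e-05). MMP11, the gene of stromelysin 3, an MMP activated by furin inside the cell, went from 1.24 ± 0.202 to 1.95 ± 0.319 (SD, n = 3; log2 change 0.40, adjusted p = 0.0138 by limma), but gave 0.07 under quantile normalization (adjusted p = 0.632 by limma).

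Other MMPs were lower or were not called. MMP2, the gene of gelatinase A, fell from 1.68 ± 0.241 to 0.753 ± 0.187 FPKM and MMP15, the gene of MT2-MMP, from 3.61 ± 0.424 to 2.05 ± 0.446 (SD, n = 3; log2 changes -0.61 and -0.60; limma adjusted p = 0.00134 and 0.00171). MMP14, which encodes MT1-MMP, the membrane protease that activates pro-MMP2 together with TIMP2, was at 17.4 ± 0.798 and 16.4 ± 0.17 (log2 change -0.07 with an SE of 0.07, adjusted p = 0.357 by limma). In TPM without mitochondrially encoded genes its log2 change was 0.20 (adjusted p = 0.0427 by limma), so its sign is not fixed by these data. MMP17, the gene of the GPI-anchored MT4-MMP, was at 0.754 ± 0.287 and 1.04 ± 0.131 and was not called (log2 change 0.23, adjusted p = 0.162 by limma). It gave 0.48 in nuclear TPM (adjusted p = 0.0334 by limma).

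MMP1, the gene of interstitial collagenase, varied more within groups than any other tested member on the log2 scale, with an SE of 0.34. It was at FPKM 1.89, 2.53 and 5.25 in Cont and 0.857, 0.740 and 2.94 in Dox. The third library was the highest of each group, and the groups overlapped. The log2 change was -0.77 (adjusted p = 0.0603 by limma). The gene was called lower without Cont replicate 1 (-1.01, adjusted p = 0.0261 by limma) and without Dox replicate 3 (-1.15, adjusted p = 0.00737 by limma). It was also called lower under quantile normalization (adjusted p = 0.0227 by limma) and with the replicate number as a block (adjusted p = 0.00073 by limma). Over all genes the replicate numbers showed no clear pairing of the libraries. Over all alternatives its adjusted p by limma ran from 0.00073 to 0.243.

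The remaining MMP rows, MMP9, MMP16, MMP23B and MMP25, missed the filter. MMP9, the gene of gelatinase B, had FPKM 0.069, 0.209 and 0.277 in Cont and 0.133, 0.177 and 0.434 in Dox, with overlapping groups. MMP23B had 0 reads in 2 Cont libraries and 1 read in the other one, against 9 to 29 reads in Dox. Its reads may be split with its near-identical copy MMP23A, and how such reads were counted was not given in the sources used here. MMP16 (MT3-MMP) averaged 0.108 and 0.262, and MMP25 (the GPI-anchored MT6-MMP) 0.0524 and 0.235. With no filter, MMP23B and MMP25 were called higher (limma adjusted p = 0.00228 and 0.0179), MMP16 and MMP9 were not (0.0604 and 0.575). MMP25, like MMP24, shares exon sequence with a gene on the opposite strand, 1454 bases with MMP25-AS1. Other members do too, among them ADAMTSL4 (736 bases with ADAMTSL4-AS1), MMP9 (430 with SLC12A5-AS1), MMP11 (218 with CHCHD10) and CPM (133 with MDM2). TIMP2 shares 198 bases with CEP295NL on the same strand. How reads in such parts were counted was not given in the sources used here.

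MMP24OS lies across MMP24 on the opposite strand and encodes no MMP. The exons of both genes share 799 bases, and whether reads were counted by strand was not given in the sources used here, so reads in the shared part cannot be told apart. MMP24OS was at FPKM 18.2, 18.4 and 15.6 in Cont and 17.3, 17.0 and 19.2 in Dox, with overlapping groups (log2 change 0.04 with an SE of 0.09, adjusted p = 0.697 by limma). Its log2 change was 0.31 in nuclear TPM (adjusted p = 0.00584 by limma). A factor applied to a whole library cancels in the ratio of MMP24 to MMP24OS, though quantile normalization does not act as such a factor. The ratio was 1.68 to 2.06 in Cont and 4.62 to 4.81 in Dox.

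Both TIMP genes analysed were lower in Dox. TIMP1, which encodes a secreted inhibitor of most soluble MMPs, was at FPKM 195, 207 and 166 in Cont and 104, 98.3 and 99.3 in Dox. TIMP2 was at 119, 112 and 131 and at 68.5, 67.4 and 76.4. Neither gene had overlapping groups. TIMP1 fell by 0.90 on the log2 scale (SE 0.08, limma adjusted p = 4.64e-06) and TIMP2 by 0.76 (SE 0.08, limma adjusted p = 1.13e-05), and both were called lower under each of the 5 scalings tried. The ratio of TIMP1 to TIMP2 was 1.59 ± 0.29 in Cont and 1.42 ± 0.11 in Dox (SD, n = 3). The summed FPKM of the 2 TIMPs was 3.74 to 4.24 times that of the 13 MMPs in Cont and 1.08 to 1.12 times in Dox. The MMP sum itself went from 70.1 to 84.1 in Cont to 148 to 162 in Dox, of which MMP24 made up 54.2 ± 1.27% (SD, n = 3).

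**Figure D2:**
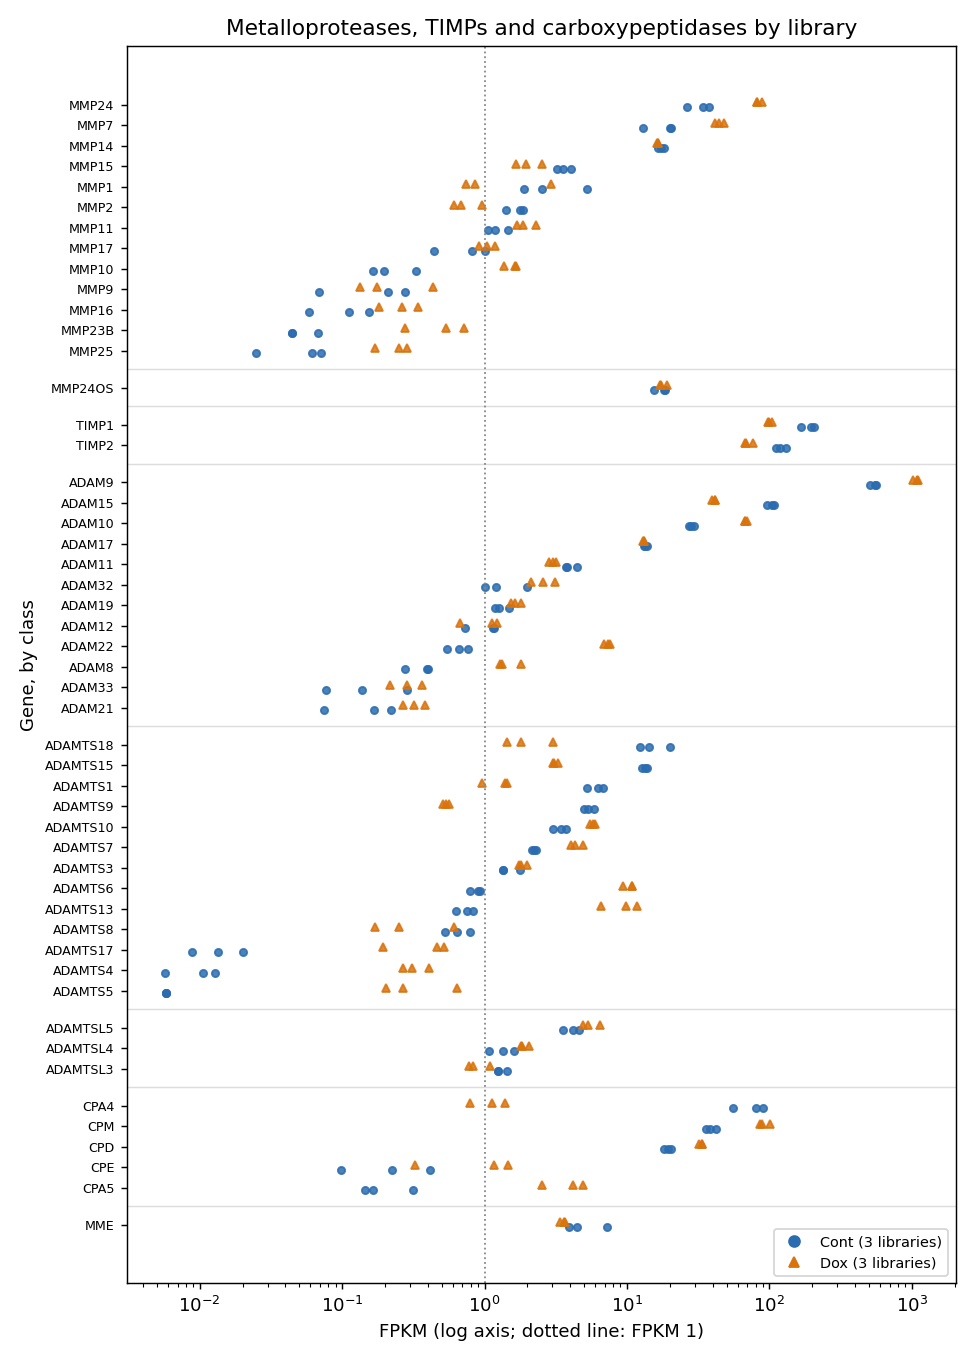
FPKM of all 50 members (log axis) in the 3 Cont (circles) and 3 Dox (triangles) libraries, in rows by class and ordered by the Cont mean. ADAM9 is the highest member in every library, and the dotted line marks FPKM 1, the level that 3 libraries had to reach for a test.

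ADAM9 was the most abundant member of the whole set. It encodes a widely expressed membrane protease that can cut growth factor precursors. Its FPKM was 557, 555 and 506 in Cont and 1102, 1087 and 1019 in Dox, a 1.98-fold rise (log2 change 0.99 with an SE of 0.07, adjusted p = 7.60e-07 by limma). It supplied 77.8 ± 0.288% of the summed ADAM FPKM in Cont and 88.4 ± 0.38% in Dox (SD, n = 3). ADAM15, whose protein carries an integrin-binding RGD motif in its disintegrin domain, went the other way, from 108, 105 and 96.4 to 41.4, 39.9 and 41.7. That was a 2.52-fold fall (log2 change -1.31 with an SE of 0.07, adjusted p = 7.35e-08 by limma), and its share of the ADAM sum went from 14.9 ± 0.23% to 3.40 ± 0.183%. The ratio of ADAM9 to ADAM15 was 5.13 to 5.29 in Cont and 24.4 to 27.3 in Dox.

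ADAM10 and ADAM17 are the best studied sheddases, ADAM10 of Notch receptors and the amyloid precursor protein and ADAM17 of tumour necrosis factor and EGF receptor ligands. ADAM10 was at FPKM 28.3, 29.3 and 27.3 in Cont and 67.6, 69.1 and 67.0 in Dox (log2 change 1.23 with an SE of 0.06, adjusted p = 6.78e-08 by limma). ADAM17 was at 13.8, 13.2 and 13.5 and at 13.11, 13.17 and 12.99. Its log2 change was -0.04 (SE 0.07, limma adjusted p = 0.62), with a sign that turned under other scalings and a call of 0.23 in nuclear TPM (adjusted p = 0.0188 by limma). The exons of ADAM17 share 1323 bases with IAH1 on the opposite strand. The difference between the paired genes was tested on their ratio, in which a factor applied to a whole library cancels (quantile normalization is no such factor). The ratio of ADAM10 to ADAM17 was 2.06, 2.23 and 2.03 in Cont and 5.16, 5.25 and 5.16 in Dox, a difference of 1.30 in log2. An exact two-sided permutation test gave p = 0.1, the smallest that 3 against 3 libraries allow, and 0.12 after Benjamini-Hochberg adjustment over the 6 ratios tested. The test thus could not reach a p under 0.05, and no conclusion is drawn from it. The ratios were not planned. The same p and adjusted p (exact permutation test) came out for ADAM9 over ADAM15, TIMP2 over MMP14, CPM over CPD and MMP24 over MMP24OS, whereas TIMP1 over TIMP2 gave p = 0.5.

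ADAM22 had the largest rise among ADAMs. It encodes a catalytically inactive ADAM that acts as a receptor for LGI proteins in neurons. Its FPKM was 0.666, 0.772 and 0.541 in Cont and 7.66, 7.39 and 6.95 in Dox, an 11.1-fold rise (log2 change 2.33 with an SE of 0.10, adjusted p = 2.38e-08 by limma). ADAM8, a protease known from leukocytes and invasive tumours, rose from 0.356 ± 0.069 to 1.48 ± 0.293 (SD, n = 3; log2 change 0.86, adjusted p = 0.000122 by limma). ADAM32 rose from 1.40 ± 0.52 to 2.61 ± 0.51 (log2 change 0.60, adjusted p = 0.00754 by limma), a call that was lost under quantile normalization (0.31, adjusted p = 0.101 by limma).

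Of the other ADAMs, ADAM11, like ADAM22 a neural ADAM without protease activity, fell by 0.32 on the log2 scale (adjusted p = 0.0142 by limma), but not in TPM (-0.25, adjusted p = 0.0702 by limma) or in nuclear TPM (-0.11, adjusted p = 0.41 by limma). ADAM12 and ADAM19, which encode the meltrins alpha and beta, were at 1.02 ± 0.245 and 1.31 ± 0.152 in Cont and at 1.01 ± 0.291 and 1.66 ± 0.136 in Dox (SD, n = 3; limma adjusted p = 0.965 and 0.106). ADAM12 was called lower under quantile normalization (-0.48, adjusted p = 0.0165 by limma), and ADAM19 was called higher in TPM (0.32, adjusted p = 0.0425 by limma). ADAM21 and ADAM33 stayed below FPKM 0.4 in every library and missed the filter. With no filter ADAM21 was called higher at a limma adjusted p of 0.048 and ADAM33 was not called (0.171).

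**Figure D3:**
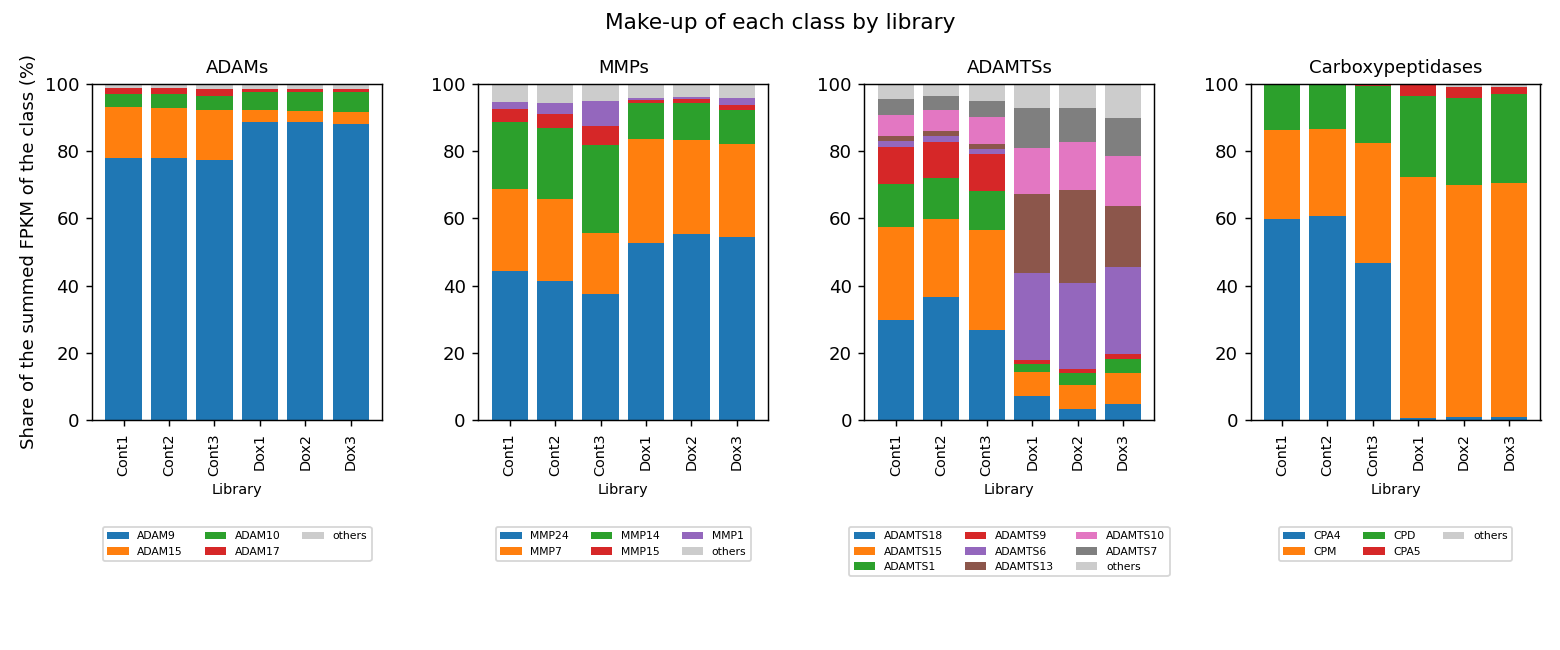
Share (%, y axis) of the summed FPKM of each class taken by its leading genes in each library (x axis), for the 12 ADAMs, 13 MMPs, 13 ADAMTSs and 5 carboxypeptidases. CPA4 takes 46.9% to 60.7% of the carboxypeptidase sum in Cont and 0.563% to 1.12% in Dox, and ADAMTS6 with ADAMTS13 replace ADAMTS18 with ADAMTS15 as the leading ADAMTSs.

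Of the 9 tested ADAMTS genes, 4 were higher in Dox and 4 lower, where 80.4% of all tested genes were called. ADAMTS6 and ADAMTS13 passed the filter only through Dox and ADAMTS9 only through Cont. ADAMTS6 was at FPKM 0.894, 0.930 and 0.796 in Cont and 10.8, 10.8 and 9.35 in Dox. ADAMTS13, which encodes the protease that cuts von Willebrand factor and is made mainly in liver, was at 0.758, 0.826 and 0.630 and at 9.86, 11.8 and 6.52. Every Dox value of these genes lay above FPKM 6, and every Cont value below 1. The rise was 11.8-fold for ADAMTS6 (log2 change 2.59 with an SE of 0.10, adjusted p = 1.03e-08 by limma) and 12.7-fold for ADAMTS13 (2.55 with an SE of 0.18, adjusted p = 5.01e-07 by limma). ADAMTS10, the closest relative of ADAMTS6, which acts on fibrillin microfibrils, rose from 3.40 ± 0.366 to 5.72 ± 0.239 (SD, n = 3; log2 change 0.62, adjusted p = 0.000227 by limma). ADAMTS7, known to cut cartilage oligomeric matrix protein, rose from 2.23 ± 0.0683 to 4.41 ± 0.454 (log2 change 0.74, adjusted p = 7.05e-05 by limma). It has pseudogene copies, so its level is uncertain.

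ADAMTS1, ADAMTS9 and ADAMTS15 belong to the ADAMTS group that cuts versican and aggrecan. ADAMTS1 was at FPKM 6.21, 6.75 and 5.25 in Cont and 0.957, 1.39 and 1.44 in Dox. ADAMTS9 went from 5.33, 5.84 and 5.03 to 0.514, 0.560 and 0.534, and ADAMTS15 from 13.3, 12.8 and 13.7 to 3.01, 3.06 and 3.28. In none of these 3 genes did the groups overlap. The log2 changes were -1.65 for ADAMTS1 (SE 0.13, limma adjusted p = 1.13e-06), -2.06 for ADAMTS9 (SE 0.10, limma adjusted p = 5.12e-08) and -1.79 for ADAMTS15 (SE 0.08, limma adjusted p = 3.45e-08). ADAMTS18, which belongs to another branch of the family, fell from 14.4, 20.1 and 12.3 to 3.02, 1.44 and 1.81 (log2 change -2.43 with an SE of 0.21, adjusted p = 2.27e-06 by limma). ADAMTS3, a procollagen protease that also processes VEGFC, was at 1.496 ± 0.25 and 1.85 ± 0.128 (SD, n = 3; limma adjusted p = 0.139) and was called higher in nuclear TPM (0.44, adjusted p = 0.0167 by limma).

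The other versican and aggrecan proteases, ADAMTS4, ADAMTS5 and ADAMTS8, were below the filter, as was ADAMTS17. In Cont, no library had a read of ADAMTS5 (0 reads each), and its level in Dox was FPKM 0.204, 0.267 and 0.639. This was at least 39.4-fold higher against a limit of 3 reads per Cont library, which covers only the counting error of independent reads. ADAMTS4 had an estimated 2, 2 and 0 reads in the Cont libraries and 185, 99.9 and 80 in Dox. ADAMTS17 had 0 to 3 reads in Cont and 36 to 132 in Dox. With no filter all 3 were called higher (limma adjusted p = 0.00748, 0.000994 and 0.00271). ADAMTS8 averaged 0.654 and 0.343 FPKM, with overlapping groups, and was called lower with no filter at a limma adjusted p of 0.0492.

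The 3 ADAMTS-like genes encode matrix proteins without a protease domain. ADAMTSL5 (4.11 ± 0.522 to 5.54 ± 0.797 FPKM) and ADAMTSL4 (1.35 ± 0.271 to 1.90 ± 0.127) rose, and ADAMTSL3 fell from 1.31 ± 0.119 to 0.903 ± 0.173 (SD, n = 3; limma adjusted p = 0.0199, 0.034 and 0.0479). These calls were lost when some single libraries were left out. ADAMTSL3 missed the threshold without any 1 library except Dox replicate 3 (limma adjusted p = 0.0689 to 0.157), ADAMTSL4 without any 1 except Cont replicate 3 (0.0511 to 0.144), and ADAMTSL5 without Cont replicate 1 (0.0819) or Dox replicate 3 (0.0676). ADAMTSL3 was also not called in TPM, in nuclear TPM, with median-of-ratios scaling or with the replicate number as a block (limma adjusted p = 0.104, 0.297, 0.0807 and 0.0733). Under quantile normalization ADAMTSL5 was not called (limma adjusted p = 0.0947), and ADAMTSL4 turned to -0.0085.

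The carboxypeptidases held the largest change of all members. CPA4, a secreted carboxypeptidase that removes hydrophobic C-terminal residues, had FPKM 80.9, 89.6 and 55.7 in Cont and 0.788, 1.39 and 1.14 in Dox. The fall was 68.2-fold by the ratio of means (log2 change -5.16 with an SE of 0.17, adjusted p = 4.93e-09 by limma), and the Dox values stand for an estimated 102, 129 and 98.5 reads. CPA5, a relative of CPA4, was at 0.165, 0.144 and 0.315 in Cont and 4.95, 4.21 and 2.53 in Dox (log2 change 1.99 with an SE of 0.18, adjusted p = 4.16e-06 by limma). In Dox the level of CPA5 was above that of CPA4 in each library.

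CPM and CPD remove C-terminal arginine and lysine. CPM, which is anchored to the cell surface, was at FPKM 36.0, 38.3 and 42.0 in Cont and 100.4, 85.5 and 89.1 in Dox (log2 change 1.22 with an SE of 0.08, adjusted p = 5.35e-07 by limma). CPD, which cycles through the trans-Golgi network, was at 18.2, 19.5 and 20.4 and at 33.6, 32.2 and 33.8 (log2 change 0.75 with an SE of 0.07, adjusted p = 5.48e-06 by limma). Neither gene had overlapping groups. CPM took 29.3 ± 5.26% of the carboxypeptidase sum in Cont and 70.0 ± 1.55% in Dox (SD, n = 3). Meanwhile the sum over the 5 genes was 119 to 148 FPKM in Cont and 124.5 to 140 in Dox, so the groups overlapped in the sum while its make-up differed. CPE, the enzyme that trims prohormones, was low, at 0.224, 0.0986 and 0.413 in Cont and 0.324, 1.16 and 1.46 in Dox. It missed the filter, and with no filter it was called higher (adjusted p = 0.0222 by limma) although Dox replicate 1 lay within the Cont range.

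MME encodes neprilysin, a membrane metallopeptidase that breaks down small peptides. It was at FPKM 4.49, 3.91 and 7.28 in Cont and 3.66, 3.41 and 3.64 in Dox. The groups did not overlap, but Cont replicate 3 was far above the others, and the gene was not called (log2 change -0.41 with an SE of 0.17, adjusted p = 0.0513 by limma). It was called lower without Cont replicate 1 (-0.48, adjusted p = 0.0477 by limma) or Cont replicate 2 (-0.56, adjusted p = 0.014 by limma) and under quantile normalization (-0.55, adjusted p = 0.0126 by limma). Over all alternatives its adjusted p by limma ran from 0.0126 to 0.385.

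Several members lie near each other in the genome, by GENCODE release 29 on GRCh38. CPA4 (chromosome 7, 130293134 to 130324180) and CPA5 (130344816 to 130368730) are 20.6 kb apart on the same strand with no coding gene between them, and they changed in opposite directions. ADAMTS1 (chromosome 21, 26835747 to 26845409) and ADAMTS5 (26917912 to 26966513) are 72.5 kb apart, and ADAMTS1 fell while ADAMTS5 went from 0 reads to a low level. In the MMP cluster of chromosome 11, MMP7 (102520508 to 102530753) and MMP10 (102770503 to 102780628) rose. These are 240 kb apart with 3 coding genes between them. MMP1 (102789920 to 102798160), 9.29 kb beyond MMP10, had a negative log2 change and was not called. ADAMTS8 and ADAMTS15 on the same chromosome are 19.98 kb apart on opposite strands, and both had lower means in Dox. ADAM9 and ADAM32 on chromosome 8 are 1.85 kb apart on the same strand, and both rose. Each gene was tested on its own, and no test was made of whether neighbours change alike.

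**Figure D4:**
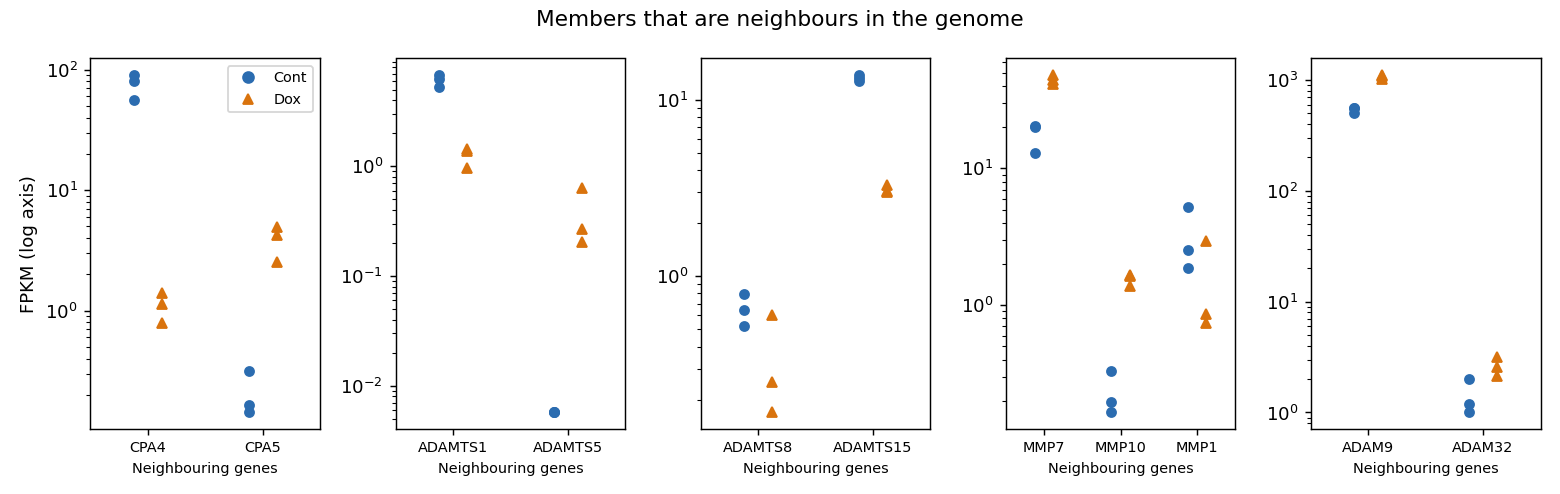
FPKM (log axis, each panel with its own scale) of members that lie near each other in the genome, with 3 Cont (circles) and 3 Dox (triangles) libraries per gene. CPA4 and CPA5 change in opposite directions, ADAMTS5 is at its 0-read value in all 3 Cont libraries, and MMP1 is the gene of its cluster with overlapping groups.

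Promoters of the members were read for motifs, since factors that bind them are among the genes of the series. RefSeq promoters (GRCh38.p14) were matched for 32 of the 50 members, and the 250 bases before the start were searched. CPA5, ADAMTS1, ADAMTS9 and ADAMTS15, each with a log2 change of at least 1 in size, had no match and were not searched. Nor were MMP1, ADAMTS5, ADAMTS8, ADAM9 and ADAM32, which lie near other members. The motifs were the FOXO site GTAAACA, the insulin response element CAAAACA, the AP-1 site TGAGTCA and the cyclic AMP element TGACGTCA, on both strands, and the TATA box TATAAA on the gene's strand. A match is a description of the letters and not a site of binding. Of 27305 promoters, 2.98% held the FOXO letters, 4.34% the insulin response letters, 4.16% the AP-1 letters, 1.77% the cyclic AMP letters and 7.18% the TATA letters. Among the 32 members, the FOXO letters were in ADAMTS13, the insulin response letters in ADAM10, the AP-1 letters in CPA4 and MMP7, and the TATA letters in CPA4, MMP7 and MMP10. The cyclic AMP letters were in 0 of the 32.

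The promoters of CPA4, MMP7 and MMP10 are shown because CPA4 had the largest fall of all members and MMP7 and MMP10 rose in 1 gene cluster. They are written 5′ to 3′ on the gene's strand, with the motif matches in capitals and the last base just before the RefSeq start. They lie at chr7:130292911-130293160 (plus strand), chr11:102530748-102530997 (minus strand) and chr11:102780629-102780878 (minus strand). By GENCODE 29 the last 27 bases of the CPA4 window and the last 6 of the MMP7 window are already exon. The stretch upstream of the RefSeq start of ADAMTS13 around its FOXO letters is at chr9:133422309-133422338 (plus strand).
CPA4: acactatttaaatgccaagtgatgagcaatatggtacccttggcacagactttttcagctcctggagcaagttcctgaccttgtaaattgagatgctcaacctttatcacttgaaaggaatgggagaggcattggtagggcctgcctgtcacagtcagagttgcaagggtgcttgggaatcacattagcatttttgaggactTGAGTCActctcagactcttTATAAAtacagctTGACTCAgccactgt
MMP7: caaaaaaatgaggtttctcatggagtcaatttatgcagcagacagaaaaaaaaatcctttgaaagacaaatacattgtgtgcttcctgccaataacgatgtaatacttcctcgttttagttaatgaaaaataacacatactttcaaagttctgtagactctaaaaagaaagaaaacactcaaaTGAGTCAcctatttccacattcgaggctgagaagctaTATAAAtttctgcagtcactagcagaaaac
MMP10: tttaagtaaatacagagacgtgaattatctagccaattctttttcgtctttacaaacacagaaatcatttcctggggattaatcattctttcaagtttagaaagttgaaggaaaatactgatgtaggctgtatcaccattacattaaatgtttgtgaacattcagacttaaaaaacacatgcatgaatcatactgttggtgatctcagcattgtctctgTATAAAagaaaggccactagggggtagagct
ADAMTS13: agcttccaagaGTAAACActgcctaatcgt
In CPA4 the AP-1 letters begin 48 bases before the start and, on the other strand, 15 bases before it, on both sides of the TATA letters at 28 bases. MMP7 has 1 AP-1 match, 67 bases before the start, and TATA letters at 30 bases. MMP10 has TATA letters at 31 bases and no other match. By GENCODE 29 the nearer AP-1 match of CPA4 thus lies within a transcript, and the TATA letters lie at its start. In ADAMTS13 the FOXO letters begin 47 bases before the RefSeq start, but all 250 bases of that window are exon in GENCODE 29, which starts the gene further upstream, at 133414358. CPA4, with AP-1 letters, fell, and MMP7, with the same letters, rose.

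Genes outside the families were taken from lists of known partners. Of 11 tested inhibitors and activators other than TIMPs, 5 rose and 5 fell, 90.9% called where all tested genes had 80.4%. The rises were led by TFPI2, a serine protease inhibitor gene (51.8, 51.8 and 54.4 to 155, 147 and 183 FPKM), and by FURIN, the convertase that activates many ADAMs and membrane-type MMPs (17.7, 18.0 and 18.7 to 44.3, 47.6 and 49.2; log2 change 1.33). PLAU, the gene of urokinase, was among those that fell (-3.81). RECK, which encodes a membrane-anchored MMP inhibitor, fell by 0.37. In nuclear TPM and under quantile normalization, 5 of the list rose and 3 fell.

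Of 11 tetraspanins, iRhoms and other listed partners of ADAM10 and ADAM17, 2 rose and 7 fell, 81.8% called and so near the 80.4% of all tested genes (median log2 change -0.35, with 3 and 4 in nuclear TPM). FRMD8, which stabilises the iRhom and ADAM17 complex, and TSPAN5, a tetraspanin partner of ADAM10, had the largest falls (-0.90 and -0.86). RHBDF2, the gene of iRhom2, fell by 0.76 while RHBDF1, that of iRhom1, was not called (0.05). TSPAN17 (0.35) and TSPAN10 (1.19) rose, and TSPAN10, below FPKM 1 in every Cont library, passed the filter only through Dox.

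Substrates changed in both directions. Of 28 membrane proteins shed by ADAMs, 10 rose and 13 fell, 82.1% called and so near the background of 80.4%. DLL1, a Notch ligand gene at FPKM 0.0402 to 0.0695 in Cont and 1.15 to 1.80 in Dox, passed the filter only through Dox, and CX3CL1 only through Cont. On the log2(FPKM + 1) scale NOTCH2 (1.496) and its ligand gene JAG1 (1.41) had the largest rises, and EREG, an EGF receptor ligand gene, and CD44, the hyaluronan receptor gene, the largest falls (-4.53 and -4.25). Of 20 matrix proteins cut by MMPs and ADAMTSs, 6 rose and 12 fell, where 37.6% of all tested genes rose and 42.8% fell (median log2 change -0.83). COL3A1, a fibrillar collagen gene, rose from FPKM 5.32, 5.48 and 6.98 to 134, 131 and 160, and FN1, the fibronectin gene, also rose (1.88). THBS1 (-3.54) and VCAN (-2.39) fell, VCAN being the gene of versican, from 96.0, 102 and 115 FPKM to 19.1, 20.1 and 18.2.

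All 8 tested genes of other carboxypeptidases and their partners rose, where 37.6% of all tested genes did (7 of 8 under quantile normalization). SCPEP1, a serine carboxypeptidase gene (26.8, 27.9 and 27.2 to 113, 107 and 89.1 FPKM), and AGTPBP1, which encodes an enzyme that trims glutamates from tubulin (12.3, 11.1 and 9.06 to 36.6, 37.9 and 40.7), had the largest log2 changes, 1.87 and 1.74. AGBL2 of this list passed the filter only through its Dox values. CPZ, CPVL, AGBL3 and SCG5 missed the filter. With no filter CPZ and CPVL were called higher (limma adjusted p = 0.000401 and 0.001). AGBL3 and SCG5 had negative log2 changes and were not called (limma adjusted p = 0.0556 and 0.934). ECE1, which encodes endothelin converting enzyme 1 and is a relative of MME, BMP1, the gene of a procollagen C-proteinase, and PHEX all fell (-0.84, -0.65 and -0.47). These were the 3 tested genes of the list of other metzincins and MME relatives, where 42.8% of all tested genes fell. PAPPA, ASTL and ECEL1 of that list missed the filter. With no filter PAPPA and ASTL were called higher (limma adjusted p = 0.00127 and 0.00732) and ECEL1 was not called (0.074). All 25 tested transcription factors known to act on MMP promoters were called, 13 higher and 12 lower, against 80.4% of all genes. The AP-1 genes FOSB (2.22) and FOS (2.20) had the largest log2 rises, but both were below FPKM 1 in every Cont library and passed the filter only through Dox. FOSL1 (-4.63) and SMAD3 (-2.91) had the largest falls.

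**Figure D5:**
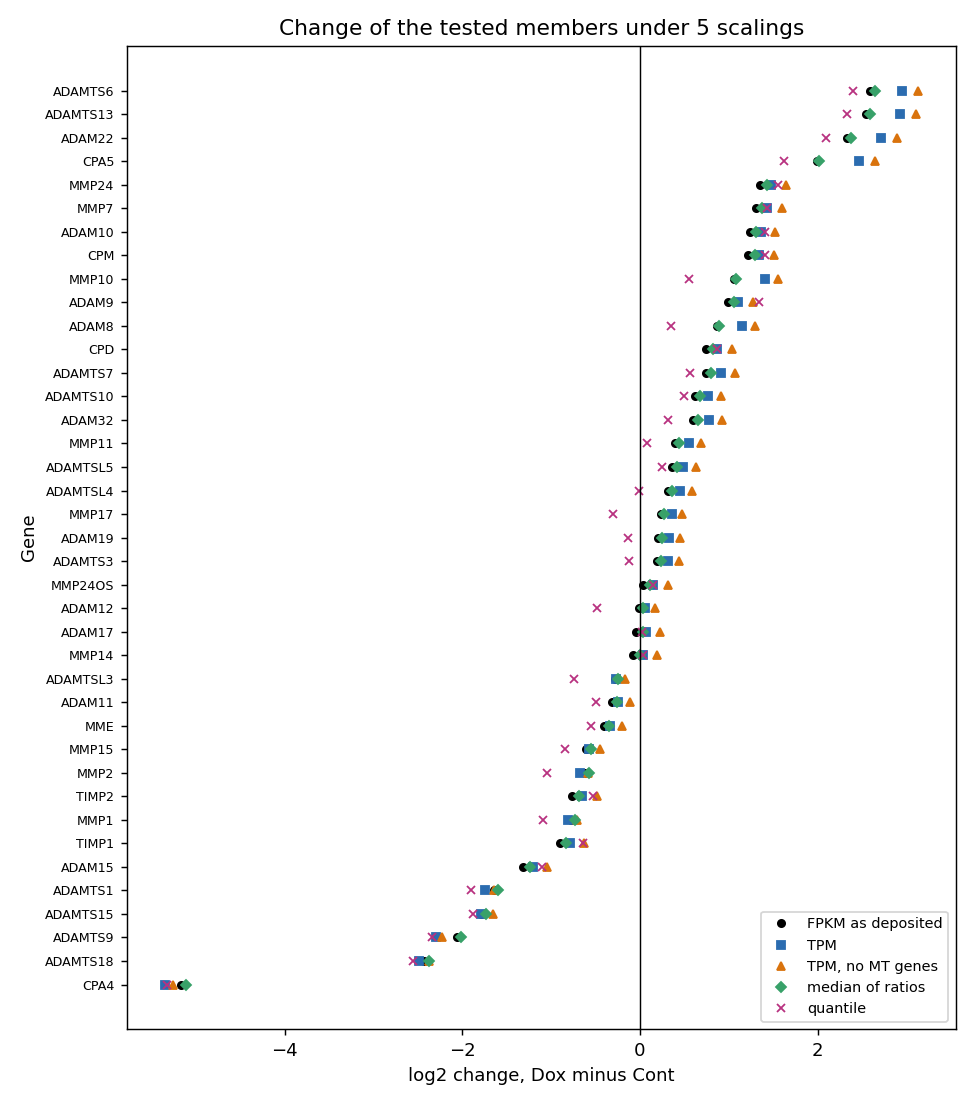
Log2 change (x axis, Dox minus Cont) of the 39 tested members under 5 scalings: FPKM as deposited, TPM, TPM without mitochondrially encoded (MT) genes, median of ratios and quantile normalization. The members with changes near 0 fall on either side of it, such as MMP14 at -0.07 as deposited and 0.20 in nuclear TPM.

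Scaling moved the median of all tested genes from -0.06 as deposited to 0.19 in nuclear TPM. As the plot of the 5 scalings shows, the sign of MMP14, ADAM17, ADAM12, ADAM19, ADAMTS3, MMP17 and ADAMTSL4 differed between scalings. Of the 30 members called, 24 kept their call and direction under every alternative that tested them, among them all of those with a log2 change of at least 1 in either direction. The exceptions were ADAM11, ADAM32, MMP11 and the 3 ADAMTS-like genes.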

How the data were processed

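Poly(A) RNA-seq libraries came from 3 Cont and 3 Dox samples. Per the file headers and values, the authors deposited 1 table of log2 FPKM for 13117 genes, with values from -8.59 to 13.9, each holding an added constant. FastQC 0.11.7 and the build GRCh38 are named in the submitters' processing notes, and the aligner, counter, annotation and strand setting are not given in the sources used here. The label of the first Cont sample names the column of the second, so columns were matched by title.

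The deposited log2 values were turned back into FPKM by exponentiation to base 2. Depth came from 307 genes whose lowest value recurs (0 reads). The added constant of each library was chosen to bring most values up to 20 reads above the lowest within 0.05 of a whole number. All such values, 30 to 92 per library, met this, which is thus no independent check. Of these values 58.7% to 80% per library were even, and the reason was not tested. The added constant equalled 1.58 to 2.62 reads. The scale was set by the 40.1% of 302 such genes with a known length that lay within 2% of each other, so total depth is approximate. Read numbers of single genes use the length of the longest GENCODE 29 transcript and are rough. limma 3.58.1 in R 4.3.3 (trend, two-sided, Benjamini-Hochberg) tested log2(FPKM + 1) for genes that reached FPKM 1 in 3 or more libraries and was tested on simulated data. This scale understates changes of low genes, and fold changes are ratios of mean FPKM. When 1 library was left out, the tested genes stayed the same. Per-library values are printed for called members with a log2 change of at least 1 in either direction and members whose FPKM averaged 20 or more in either group. The rule also asked for protein stretches, which were not analysed here. Other genes are named as the 2 largest rises and falls of each list, except for 1 gene that is not reported here. MMP1, MME, MMP24OS, ADAM17, the members below the filter, RECK, RHBDF1, RHBDF2, DLL1, CX3CL1, AGBL2, AGBL3, CPZ, CPVL, SCG5, PAPPA, ASTL and ECEL1 were added after their values were seen. The ratios between genes or classes and their tests were not planned. The members and lists were chosen with earlier results of these data known.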

Additional observations from a re-analysis of the deposited data

How the results depend on the processing

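The number of members called higher was 16 to 18 and the number called lower 11 to 13 when any 1 library was left out, with 8811 to 9266 of all tested genes called. Requiring FPKM 5 in 3 libraries left 21 members to test, of which 10 were higher and 8 lower, because fewer genes were tested. At that filter 7727 of all 9220 tested genes were called, so these counts are no result about the members. With no filter, 25 of 50 members were higher and 13 lower, against a background of 77.3%. Under quantile normalization 14 were higher and 15 lower, where 4383 of all tested genes were higher and 4776 lower. In TPM without mitochondrially encoded genes 24 were higher and 10 lower, where 5477 of all tested genes were higher and 3810 lower.

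Signs turned for 8 members, each with a log2 change of at most 0.313 in size as deposited, and the cause was not tested. ADAM12 gave 0.0611 in TPM, 0.168 in TPM without mitochondrially encoded genes, 0.0294 with median-of-ratios scaling, and 0.0476, 0.0426 and 0.117 without Cont replicate 1, Cont replicate 2 and Dox replicate 3, in a range of -0.113 to 0.117 over the libraries left out. ADAM17 gave 0.0699, 0.228 and 0.0293 under the same 3 scalings and 0.0223 under quantile normalization. MMP14 gave 0.0356 in TPM, 0.195 in TPM without mitochondrially encoded genes and 0.0307 under quantile normalization. Quantile normalization also turned ADAM19 (-0.138), ADAMTS3 (-0.118), ADAMTSL4 (-0.0085) and MMP17 (-0.298). MMP24OS turned without Cont replicate 3 (-0.0334) or Dox replicate 3 (-0.0128), in a range of -0.0334 to 0.0784.

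Replicate numbers showed no clear pairing of the libraries. Deviations of same-numbered Cont and Dox libraries correlated at 0.0371, -0.0048 and 0.0793. Cont replicate 2 correlated best with Dox replicate 1, and Cont replicate 3 with Dox replicate 3. With 3 libraries a group, such low correlations cannot settle whether the numbers pair the libraries. With the replicate number as a block, 18 members were higher and 13 lower, and 9272 of all tested genes were called. ADAMTSL3 was then not called (limma adjusted p = 0.0733), and MMP1 and MME were called lower (limma adjusted p = 0.00073 and 0.0336). Members below FPKM 1 rest on few reads, and changes there are limited by depth.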
